A study of Mus musculus with 6 samples.

Results

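The mitochondrial ribosome, or mitoribosome, makes the few proteins that the mitochondrial genome encodes, all of them parts of the respiratory chain and ATP synthase. It has a large subunit, which joins amino acids into a chain, and a small subunit, which reads the mRNA. Both are built around rRNA made inside the mitochondrion, while their proteins are encoded by nuclear genes, made in the cytosol and imported. Some of these proteins have counterparts in bacterial ribosomes and others are found in mitochondria alone. The nuclear genes carry symbols beginning with Mrpl for the large and Mrps for the small subunit, and acute myeloid leukemia cells are known to depend on mitochondrial translation.
The expression of these genes was compared between leukemia stem cells (LSCs) with and without Piezo1, which encodes a mechanically gated cation channel. A symbol that began with Mrpl or Mrps followed by a digit was held by 84 rows of the table. The 6 pseudogene rows among them were dropped, and none of the others was at 0 in all 6 libraries, which left 78 genes of the 26402 with values, 49 for the large and 29 for the small subunit. The choice used the symbols and no measured difference.

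LSCs were sorted from mice with an acute myeloid leukemia driven by MLL-AF9, a fusion oncogene delivered with a yellow fluorescent protein (YFP) by retrovirus into lineage-negative bone marrow cells, which were then transplanted into irradiated mice. The sorted cells were YFP+ Lin- Sca-1- c-Kit+ CD16/32hi CD34+. Piezo1cKO donors were Mx1-cre; Piezo1 fl/fl mice treated with pIpC, a double-stranded RNA that induces interferon and with it the Mx1 promoter that drives Cre, and WT donors were Piezo1 fl/fl littermates without Cre that had received pIpC too. Donors of both groups, of both sexes, were on the C57BL/6J background and 8 to 10 weeks old. WT therefore shares the floxed allele and pIpC with Piezo1cKO but not Cre, so effects of Cre and of the deletion cannot be told apart. There were 3 libraries of each group, and nothing in the labels says whether the libraries of a group came from separate mice, so p-values measure the spread between these libraries, which may be technical.
The deposited values are on a log2 scale and pulled towards the mean of each gene, which makes fold changes smaller. Whole reads could be recovered from them, 14112082 to 15483576 per library. A value called a read number below is the number of recovered reads divided by the library's size factor. Piezo1 had 101, 93 and 109 reads in WT replicates 1 to 3 and 37, 57 and 46 in Piezo1cKO replicates 1 to 3, counted over the whole gene, deleted exons included. All 4 genes of the sorted gate and all 4 of the leukemia program that were checked had reads in both groups, but not at equal levels. Of the gate genes, Kit and Cd34 were higher in Piezo1cKO LSCs (136% and 156% of WT reads), Fcgr2b was lower (48.1%) and Fcgr3 was not called. Ly6a, the gene of Sca-1, was expected low and had 1, 1 and 0 reads in WT and 10, 17 and 7 in Piezo1cKO libraries (higher, adjusted p = 0.000535, limma). Of the leukemia program, Meis1 and Myb were lower (86.8% and 92.8%), and Hoxa9 and Hoxa10 were not called. Summed reads of 7 neutrophil genes ran from 171 to 174 RPM (reads scaled to the library total) in WT and from 63.7 to 67.9 in Piezo1cKO libraries, with Ngp, Camp, Ltf, S100a8 and S100a9 lower, Mmp8 higher (42.5 and 634 reads on average) and Lcn2 not called. Those of 6 B cell genes, mostly Ighm, ran from 816 to 844 and from 1520 to 1540. Those of 5 macrophage genes ran from 61.2 to 66.4 and from 62.9 to 71.1. C1qb and C1qc were higher, at few reads, Adgre1 and Vcam1 were not called and C1qa had no reads. The part of these cell type genes in the results below was not tested, and in bulk samples fewer cells of a type and less RNA per cell cannot be told apart.

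Of the 69 mitoribosomal protein genes that had a promoter sequence in RefSeq (GRCm38.p6, 250 bases before to 50 after the start of transcription), 26 held CCGGAAG, the core bound by ETS factors such as GABPA, on one strand or the other. This was 37.7% of them, against 19.4% of the 11029 tested genes with a promoter and 9.93% of all 27025. The core of YY1, searched as AAGATGGC on both strands, was in 12 members (17.4%, against 5.05% of tested genes), and the core of NRF1, CGCATGCG, a palindrome, in 7 (10.1%, against 4.06%). GABPA, YY1 and NRF1 are known activators of nuclear genes for mitochondrial proteins. The E-box CACGTG was in 5 members (7.25%, against 11.4%), and TGATGNAA, the composite element of ATF4 and C/EBP factors, in none, against 2.84% of tested genes. A match describes letters in this window and is not a measured binding site.
Sequences with the ETS core are shown for 4 members that differed between the groups, as the 60 bases before the start, 5′ to 3′ on the strand of the gene, with the core in capitals. Mrpl3 (chr9:105053208-105053267, plus strand), Mrpl27 (chr11:94653731-94653790, plus strand) and Mrps18a (chr17:46110944-46111003, plus strand) were higher in Piezo1cKO LSCs and Mrps22 (chr9:98601680-98601739, minus strand) was lower, so the same core stood before genes that moved in either direction.
Mrpl3: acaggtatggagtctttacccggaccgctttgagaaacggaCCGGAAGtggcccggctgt
Mrpl27: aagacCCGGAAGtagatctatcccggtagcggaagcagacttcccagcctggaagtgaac
Mrps18a: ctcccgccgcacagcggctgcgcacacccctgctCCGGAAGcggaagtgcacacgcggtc
Mrps22: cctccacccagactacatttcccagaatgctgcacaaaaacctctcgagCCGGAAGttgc
The YY1 core began 12 to 37 bases after the start in 8 of the 12 members that held it. Its letters include ATG, and whether these matches hold the start codon of the protein was not checked. The 30 bases around the core are shown for 5 of them, with the core in capitals. Mrpl42 (chr10:95501904-95501933, minus strand) and Mrps18a (chr17:46111004-46111033, plus strand) were higher in Piezo1cKO LSCs, and Mrpl37 (chr4:107066822-107066851, minus strand), Mrpl49 (chr19:6057721-6057750, minus strand) and Mrps7 (chr11:115604147-115604176, plus strand) were lower.
Mrpl42: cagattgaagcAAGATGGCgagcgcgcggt
Mrps18a: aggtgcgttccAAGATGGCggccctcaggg
Mrpl37: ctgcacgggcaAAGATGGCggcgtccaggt
Mrpl49: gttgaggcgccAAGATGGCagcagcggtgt
Mrps7: tgacagcggccAAGATGGCtgcccccgcgc
Split by the comparison described next, the YY1 core was in 7 of the 17 lower, 3 of the 26 higher and 2 of the 25 uncalled members with a promoter sequence, and the ETS core in 4, 11 and 10. These are counts in the same libraries that gave the calls, and no test was made of them.

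Mitoribosomal protein genes moved in both directions in Piezo1cKO LSCs, and by small amounts. Of the 77 members tested, 27 were higher and 20 lower than in WT LSCs at an adjusted p under 0.05 (limma with Benjamini-Hochberg adjustment over all 16746 genes tested), and 30 did not pass. The differences on the deposited log2 scale ran from -0.34 for Mrpl50 to 0.35 for Mrpl3, with a median of 0.00, the same as the median of all genes tested. On recovered reads the largest were a 1.45-fold rise (Mrpl3) and a 1.52-fold fall (Mrps6).
Among all genes tested, 31.6% were higher and 31.4% lower, 63.0% in all, so the 61% of members that were called is near the share of any gene. No member passed the study's own thresholds, which also ask for an absolute log2 fold change over 1 and which 0.818% of genes passed on the deposited scale and 24.9% on recovered reads. All 3 Piezo1cKO libraries lay beyond all 3 WT libraries in 47 of the 77 members, against 66.6% of all genes. Recovered reads, fitted by limma-voom, gave 28 higher and 19 lower members, where 31.6% and 31.4% of 17352 genes were called, and 46 of their 47 calls were the same genes in the same direction as on the deposited scale. Centring each library on its median turned the split of 27 higher and 20 lower into 31 and 13, and that of all genes from 5298 and 5258 into 6450 and 4214. Quantile normalization gave 30 and 14 members, with 5311 and 4901 of all genes.

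**Figure D1:**
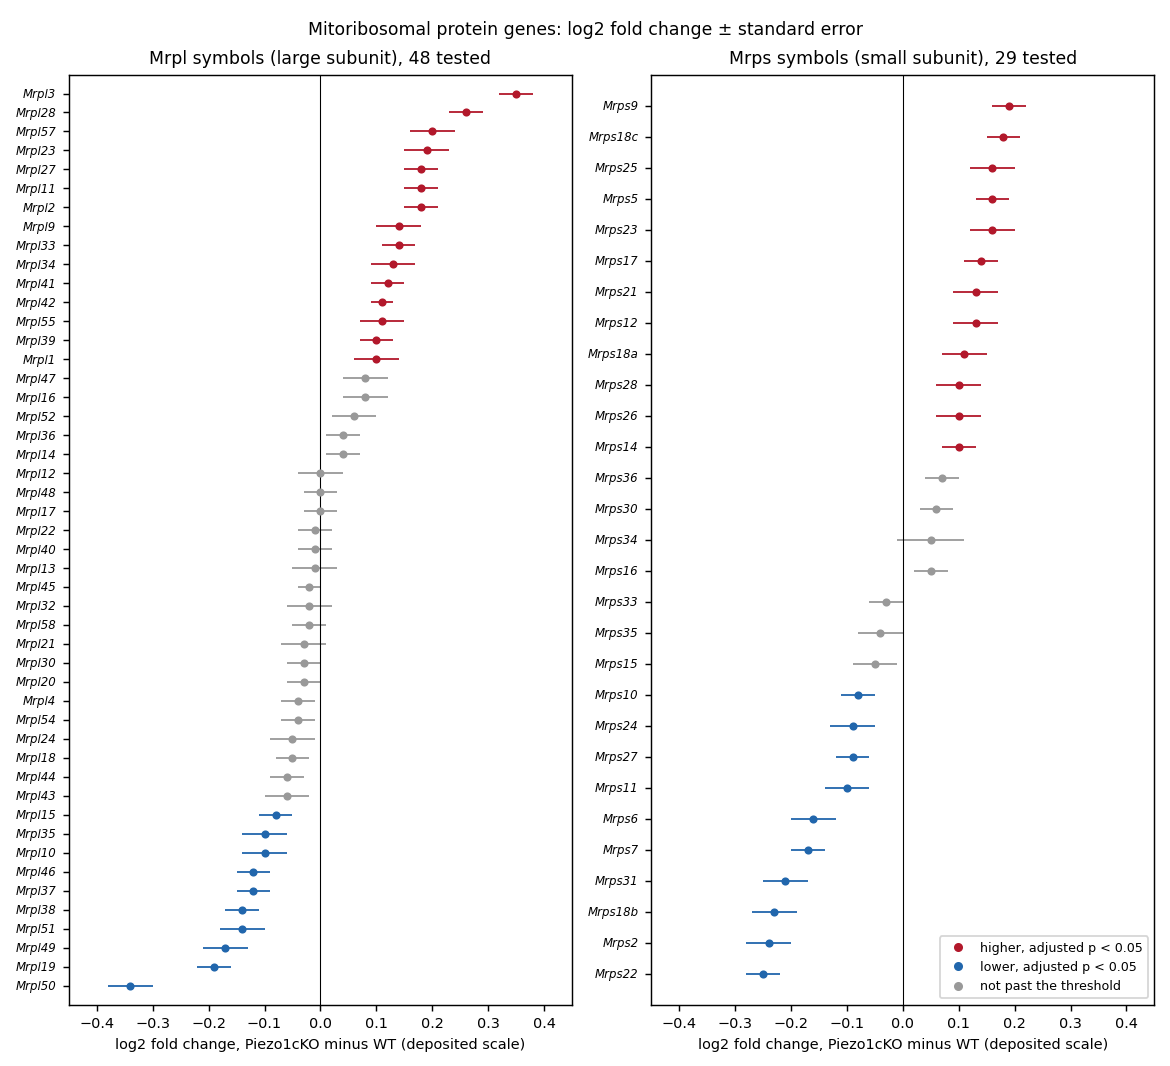
Log2 fold change of the deposited values (Piezo1cKO minus WT, horizontal axis) for the 48 large subunit (left) and 29 small subunit (right) genes tested, with bars for the standard error. Red points were higher and blue points lower at an adjusted p under 0.05. Both subunits held genes on either side of 0, from -0.34 to 0.35.

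In the large subunit 15 of the 48 genes tested rose, 10 fell and 23 did not pass, with a median of -0.01. That median turned positive under median-centring (0.017) and on library totals of recovered reads (0.01), settings that also moved the median of all genes, to 0.023 and 0.018. It was 0.018 under quantile normalization, where all genes had a median of 0.002. In the small subunit 12 of 29 rose, 10 fell and 7 did not pass, with a median of 0.05 (0.03 without Piezo1cKO replicate 2). So 52.1% of the large and 75.9% of the small subunit genes were called, on either side of the 63.0% of all genes. A list is described here by its counts alone, and the difference between the subunits was not tested.
The subunit in the symbol is not always that of the protein. Mrps30 (mL65) and Mrps18a (mL66) are parts of the large subunit, and Mrps36 belongs to the oxoglutarate dehydrogenase complex of the citric acid cycle. With these placed by their protein, the large subunit had 16 higher and 10 lower of 50, and the small subunit 11 higher and 10 lower of 26 with a median of 0.01. Mrps30 had 3347, 3225 and 3408 reads in WT and 3747, 3490 and 3372 in Piezo1cKO libraries, and the groups overlapped (0.06 on the deposited log2 scale, adjusted p = 0.0708, limma). Mrps18a had 1024, 1048 and 932 against 1040, 1092 and 1229 reads (0.11, adjusted p = 0.029, limma), also overlapping, and the call was lost in 4 of the 6 fits without 1 library. Mrps36 (0.07, adjusted p = 0.0526, limma) did not pass here, but was called on recovered reads (adjusted p = 0.0483, limma-voom) and in 6 of the 12 other fits of the deposited values.
By origin, the 30 large subunit genes whose proteins have bacterial counterparts held 11 higher and 4 lower, and the 20 tested mitochondria-specific ones 5 higher and 6 lower. In the small subunit the 16 with bacterial counterparts held 8 higher and 6 lower, and the 10 mitochondria-specific ones 3 higher and 4 lower. Mrps18a (higher) and Mrps18b (lower), which are related to bacterial S18, were counted here as mitochondria-specific. Each class thus held genes of both directions, where 31.6% of all genes were higher and 31.4% lower.

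Among large subunit genes that rose, Mrpl3 changed most. Its protein is the counterpart of bacterial L3, which binds the rRNA early in assembly. Mrpl3 (chromosome 9, 105053239 to 105079888) had 711, 665 and 732 reads in WT replicates 1 to 3 and 1024, 1013 and 1031 in Piezo1cKO replicates 1 to 3. The Piezo1cKO libraries were all higher and lay closer together than the WT libraries. The deposited value went from 9.56 ± 0.04 to 9.90 ± 0.01 (SD, n = 3 libraries), a log2 fold change of 0.35 (adjusted p = 4.67e-08 by limma, with a standard error of 0.03), or 0.54 on recovered reads.
Mrpl28 (chromosome 17, 26123500 to 26126613), a counterpart of bacterial L28, had 3473, 3707 and 3653 reads in WT and 4348, 4882 and 4725 in Piezo1cKO libraries. The groups did not overlap, and the deposited values differed by 0.26 (log2) (adjusted p = 5.5e-07 by limma, with a standard error of 0.03) and 0.37 on recovered reads. It was also the member with the most reads per length, as described below.
The mitochondria-specific Mrpl57 had 1110, 1124 and 1138 reads in WT and 1243, 1503 and 1398 in Piezo1cKO libraries (0.20 on the deposited log2 scale, adjusted p = 0.000246, limma). Its Piezo1cKO libraries were spread more widely than its WT libraries, without reaching them. The other 3 of the 6 largest rises were Mrpl23 (0.19), whose bacterial counterpart sits at the exit of the peptide tunnel, Mrpl27 (0.18), whose bacterial counterpart lies close to the peptidyl transferase centre, and Mrpl11 (0.18), whose counterpart forms the base of a stalk that recruits translation factors. In all 3 the groups did not overlap, and on recovered reads they were 1.22-fold, 1.23-fold and 1.22-fold higher.

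Among small subunit genes that rose, Mrps9 changed most, by less than Mrpl3 and Mrpl28. Mrps9 (chromosome 1, 42851233 to 42905683), a counterpart of bacterial S9, had 506, 538 and 522 reads in WT and 661, 642 and 639 in Piezo1cKO libraries. The groups were well apart, with a difference of 0.19 in the deposited log2 values (adjusted p = 9.47e-05 by limma, with a standard error of 0.03) and 0.31 on recovered reads.
Mrps18c, one of the 3 mammalian genes related to bacterial S18 together with Mrps18a and Mrps18b, had 1174, 1167 and 1097 reads in WT and 1349, 1394 and 1382 in Piezo1cKO libraries (0.18 on the deposited log2 scale, adjusted p = 7.43e-05, limma). Mrps18b moved the other way, as given below, so the 3 related genes did not share a direction.
Mrps25 had 795, 765 and 685 reads in WT and 860, 901 and 908 in Piezo1cKO libraries (0.16 on the deposited log2 scale, adjusted p = 0.00105, limma), but 69.8% of its exonic bases also lie in exons of Nr2c2. The libraries do not mark the strand, so reads of this shared stretch cannot be told apart. Mrps5, Mrps23 and Mrps17 completed the 6 largest rises, at 0.16, 0.16 and 0.14. Mrps23 was the one whose groups touched, with 426 reads in WT replicate 2 and 425 in Piezo1cKO replicate 2, and without WT replicate 3 it no longer passed (0.112, adjusted p = 0.06, limma).

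**Figure D2:**
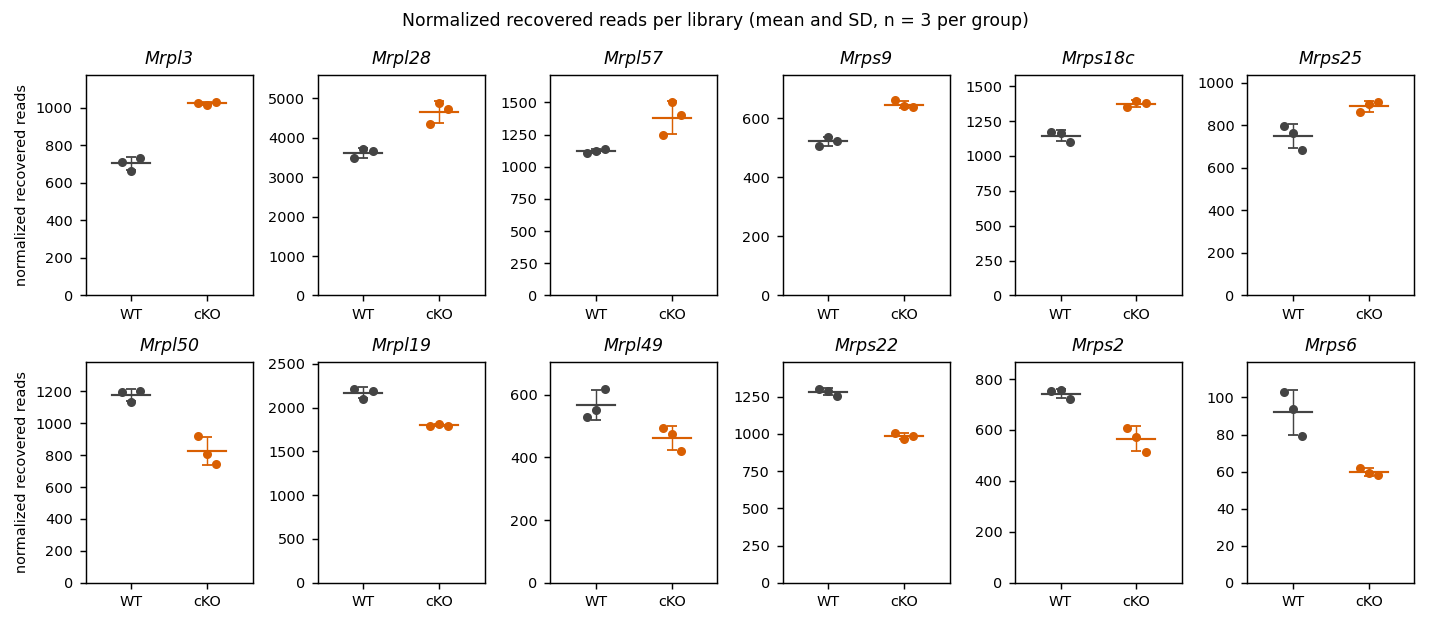
Normalized recovered reads (vertical axes, from 0) of 6 members that rose (top) and 6 that fell (bottom) in the 3 WT and 3 Piezo1cKO (cKO) libraries, with the mean as a line and the SD as a bar. In all 12 the groups did not overlap, with Mrpl3 at 1013 to 1031 reads against 665 to 732 and Mrpl50 at 744 to 920 against 1132 to 1200.

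Among large subunit genes that fell, Mrpl50 changed most. It encodes a mitochondria-specific protein. Mrpl50 (chromosome 4, 49512596 to 49521093) had 1194, 1132 and 1200 reads in WT and 920, 810 and 744 in Piezo1cKO libraries. The Piezo1cKO libraries differed more among themselves than the WT libraries, and all were lower. The deposited value went from 10.11 ± 0.03 to 9.78 ± 0.10 (SD, n = 3 libraries), a log2 fold change of -0.34 (adjusted p = 1.21e-06 by limma, with a standard error of 0.04), or -0.52 on recovered reads. Without 1 library at a time it stayed between -0.39 and -0.29.
Mrpl19, a counterpart of bacterial L19, had 2215, 2098 and 2193 reads in WT and 1792, 1818 and 1793 in Piezo1cKO libraries (-0.19 on the deposited log2 scale, adjusted p = 1.37e-05, limma). Its Piezo1cKO libraries were nearly equal, and 36% of its exonic bases are shared with Gcfc2. Mrpl49, mitochondria-specific, had 529, 551 and 619 reads in WT and 495, 473 and 420 in Piezo1cKO libraries (-0.17, adjusted p = 0.0019, limma), a narrow gap between the groups. The mitochondria-specific Mrpl51 (-0.14), Mrpl38 (-0.14) and Mrpl37 (-0.12) completed the 6 largest falls, and their reads in Piezo1cKO LSCs were 86.4%, 86.6% and 88.9% of the WT level. Of these 6 genes, Mrpl19 is the one whose protein has a bacterial counterpart.

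Among small subunit genes that fell, Mrps22 and Mrps2 changed most. Mrps22 (chromosome 9, 98588730 to 98601660), mitochondria-specific, had 1304, 1292 and 1258 reads in WT and 1007, 967 and 984 in Piezo1cKO libraries. The spread within each group was small beside the gap, and the deposited log2 values differed by -0.25 (adjusted p = 9.01e-07 by limma, with a standard error of 0.03) and -0.38 on recovered reads.
Mrps2 (chromosome 2, 28468066 to 28471178), a counterpart of bacterial S2, had 752, 756 and 721 reads in WT and 609, 574 and 514 in Piezo1cKO libraries. The groups did not overlap (-0.24 on the deposited log2 scale, adjusted p = 2.49e-05 by limma, with a standard error of 0.04). Mrps18b had 619, 610 and 612 reads in WT and 495, 438 and 480 in Piezo1cKO libraries (-0.23, adjusted p = 2.49e-05, limma), with 30.5% of its exonic bases shared with Gm16279.
Mrps31 (-0.21), which is mitochondria-specific, and Mrps7 (-0.17), a counterpart of bacterial S7 in the head of the subunit, fell as well, to 77.9% and 84% of the WT read level. Mrps6, a counterpart of bacterial S6, had far fewer reads than these, 103, 94 and 79 in WT and 62, 59 and 58 in Piezo1cKO libraries. Its fall was -0.16 on the deposited log2 scale (adjusted p = 0.00121, limma) but -0.61 (standard error 0.15) on recovered reads. Mrps6 thus ranked sixth among falling small subunit genes by the deposited values and had the largest fall of all members by reads.

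The levels of the members differed far more than their responses. In RPM per kilobase of exon, the median level of the members was 25, with quartiles of 13.8 and 50.7. The median was 26.3 for large and 19.4 for small subunit genes. Mrpl28 had the highest level, 176 ± 6.37 in WT and 229 ± 13.8 in Piezo1cKO LSCs (SD, n = 3 libraries). Mrpl45, whose protein sits where the new chain leaves the ribosome towards the inner membrane, had 124 ± 1.59 and 123 ± 1.17, and Mrpl42, a mitochondria-specific protein gene, 109 ± 2.21 and 122 ± 1.80. Mrpl42 was higher in Piezo1cKO LSCs (0.11 on the deposited log2 scale, adjusted p = 0.000351, limma) and there differed from Mrpl45 by no more than the spread between libraries. The difference for Mrpl45 was -0.02 on the deposited log2 scale (adjusted p = 0.505 by limma, with a standard error of 0.02).
At the low end, Mrps35 had 3.41 ± 0.259 in WT and 3.28 ± 0.189 in Piezo1cKO LSCs, with a log2 fold change of -0.04 (adjusted p = 0.375, limma), and Mrps6 had 4.02 ± 0.523 and 2.65 ± 0.078. Lengths are those of all annotated exons of a gene together, so a gene with long rarely used exons gets a low level. Mrpl53 had, after rounding, 1 recovered read in all, in Piezo1cKO replicate 2, and was not tested. Of its exonic bases 88% lie in exons of Gm42688, and how reads on 2 genes at once were counted is not given in the sources used here. Mrps34, with 77.8% of its bases in exons of Mapk8ip3, had 258 reads in WT and 277 in Piezo1cKO LSCs (0.05 on the deposited log2 scale, adjusted p = 0.475, limma).
Mrpl48 was the member whose sign differed between the deposited values and the recovered reads, and both differences were 0.00 when rounded (adjusted p = 0.996, limma, and 0.993, limma-voom).

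Summed over the 49 large subunit genes, recovered reads in RPM were 4082, 4143 and 4083 in WT replicates 1 to 3 and 4207, 4299 and 4303 in Piezo1cKO replicates 1 to 3. Summed over the 29 small subunit genes they were 1985, 1981 and 1967 against 2016, 2042 and 2046. All Piezo1cKO libraries lay above all WT libraries in both sums, which follow the symbols and are scaled to library totals. With that scaling the median log2 fold change of all genes on recovered reads was 0.018. Mean deposited log2 values per library, over the genes tested, overlapped between the groups. For the large subunit they were 9.935, 9.946 and 9.935 in WT and 9.945, 9.962 and 9.96 in Piezo1cKO libraries. For the small subunit they were 9.653, 9.658 and 9.642 against 9.641, 9.66 and 9.665. The small subunit sum holds Mrps30, Mrps18a and Mrps36. Sums by place of the protein were not made, so the order of the libraries is given for the symbols alone. The large subunit sum holds Mrpl28 and Mrpl42, which had many reads and rose, and such genes weigh more in a sum than in a median.
The ratio of large to small subunit reads was 2.06, 2.09 and 2.08 in WT and 2.09, 2.11 and 2.10 in Piezo1cKO libraries, or 2.07 ± 0.018 and 2.10 ± 0.0096 (SD, n = 3 libraries). The groups met at 2.09 in this ratio by symbol, and a ratio with proteins placed by subunit was not made. The 85 genes for proteins of the cytosolic ribosome, which makes the proteins encoded in the nucleus, summed to 13690, 13840 and 13690 RPM in WT and 16130, 16380 and 16560 in Piezo1cKO libraries. Of these 85 genes 56 rose and 9 fell, with a median of 0.14, between 0.121 and 0.159 in all fits of the deposited values. These were 65.9% and 10.6%, where 31.6% of all genes were higher and 31.4% lower. For the members these counts were 27 and 20 of 77, and the difference between the lists was not tested.

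**Figure D3:**
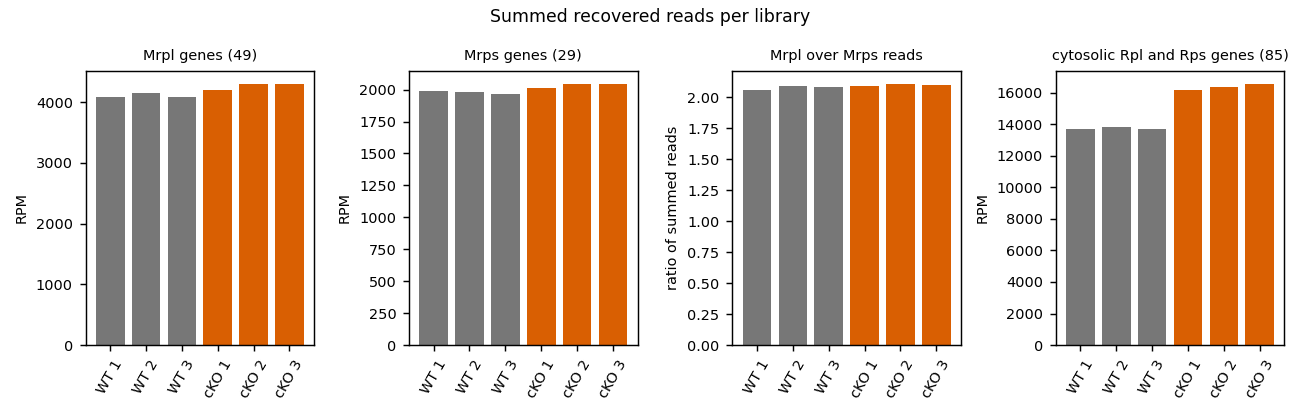
Recovered reads (RPM) summed over the Mrpl genes, the Mrps genes and the cytosolic ribosomal protein genes in each library, and the ratio of Mrpl to Mrps reads (vertical axes, from 0). Grey bars are WT and orange bars Piezo1cKO (cKO) libraries. The Mrpl sums sit between 4082 and 4303 and the cytosolic sums between 13690 and 16560.

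Among 5 further mitoribosome proteins whose genes carry other symbols, Dap3, a GTP-binding protein of the small subunit, rose (0.11 on the deposited log2 scale, adjusted p = 0.0093, limma) and Ptcd3, also of the small subunit, fell (-0.07, adjusted p = 0.0471, limma). Chchd1 (-0.04), Aurkaip1 (0.07) and Gadd45gip1 (-0.08) did not pass.
Larger changes were found among genes that serve the mitoribosome without being part of it. Of 26 genes for its assembly and rRNA, 14 fell and 4 rose, with a median of -0.09. These were 53.8% and 15.4%, where 31.4% of all genes tested were lower and 31.6% higher. The 69.2% called in either direction is near the 63.0% of all genes. Ddx28, an RNA helicase for large subunit assembly, had 430, 451 and 468 reads in WT and 203, 235 and 253 in Piezo1cKO libraries (-0.51 on the deposited log2 scale, adjusted p = 5.58e-09, limma). Fastkd2, which binds the large subunit rRNA, fell to 60.9% of its WT reads (-0.44), Mrm1, which methylates that rRNA, to 64.4% (-0.35), and the GTPase Gtpbp10 to 62.2% (-0.32).
Of 13 translation factors 4 rose and 2 fell (46.2% called, against 63.0% of all genes), with a median of 0.04. The release factor gene Mtrf1 went from 182, 196 and 170 to 404, 378 and 368 reads (0.53, adjusted p = 1.06e-09, limma), while Gfm1, an elongation factor, fell to 71.1% (-0.29). Mtif3, an initiation factor, rose by 0.19, and Mtres1, which acts on stalled mitoribosomes, by 0.16. Of 13 genes for mitochondrial DNA maintenance, transcription and RNA stability 7 fell and 1, Polg2, rose (0.28). That is 61.5% called, near the 63.0% of all genes, with 53.8% lower against 31.4%. Tefm, a transcription elongation factor, had -0.30, Lrpprc, which stabilizes mitochondrial mRNAs, -0.28 and the DNA helicase Twnk -0.26, and the median was -0.14.
Of 9 tested regulators 4 fell and 2 rose (66.7% called, against 63.0% of all genes). Nrf1 had 1839, 1830 and 1950 reads in WT and 1404, 1420 and 1407 in Piezo1cKO libraries (-0.28, adjusted p = 1.62e-07, limma), Pprc1, a coactivator, fell to 74.6% of its WT reads (-0.27), Atf4, a factor of the amino acid response, to 62.4% (-0.44), and the nuclear receptor gene Esrra rose (0.18). The 7 members with the NRF1 core in the promoter held 2 higher, 2 lower and 3 uncalled genes.
Of the 13 mRNAs encoded in mitochondria, which the mitoribosome reads, 2 passed the threshold, against 63.0% of all genes tested, and 6 averaged under 50 reads. The gene mt-Co1 rose (0.08, adjusted p = 0.0373, limma) and mt-Cytb fell (-0.09, adjusted p = 0.0123, limma). Both calls were lost without a variance trend, and none of the 13 had groups that did not overlap. Of the mitochondrial rRNAs, mt-Rnr2 of the large subunit had 7296, 6801 and 6039 reads in WT and 8266, 8730 and 8142 in Piezo1cKO libraries (0.24, adjusted p = 1.36e-05, limma). mt-Rnr1 of the small subunit varied between WT libraries, from 499 to 1116 reads (0.21, adjusted p = 0.176, limma). The libraries were primed with oligo-dT, which is not aimed at rRNA.

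**Figure D4:**
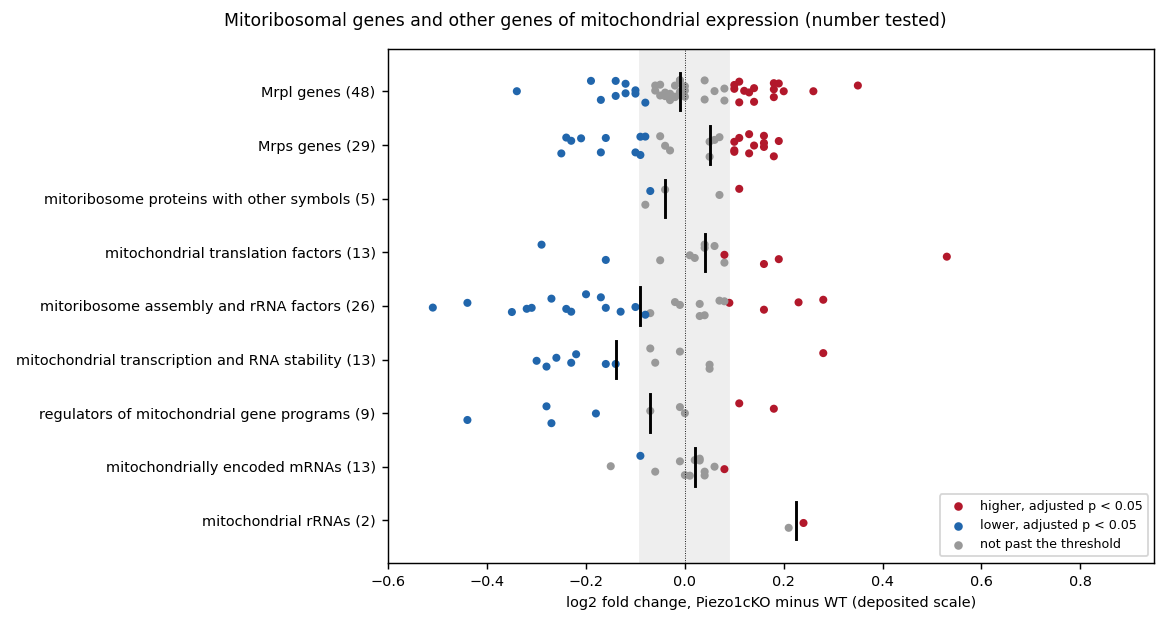
Log2 fold change of the deposited values (Piezo1cKO minus WT, horizontal axis) for each gene tested in the 2 subunits and in 7 lists of related genes, with the number tested in brackets. Black lines mark medians, the grey band runs from the lower to the upper quartile of all genes tested (-0.09 to 0.09), and red and blue points passed an adjusted p of 0.05. The assembly list lies mostly on the lower side (median -0.09) and the subunits on either side of 0.

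Many mitoribosomal protein genes share a promoter region with a neighbour on the opposite strand. A neighbour that started within 1000 bases upstream, head to head, was found for 18 of the 78 members (23.1%), against 10.4% of the 12549 protein-coding genes tested. Exons of the members spanned a median of 2394 bases against 4367. In 10 of these pairs both genes passed the threshold, and in 4 of the 10 they moved the same way, against 56.2% of all 249 such pairs.
Mrpl50 and its neighbour Zfp189 both fell (-0.34 and -0.24), as did Mrpl51 and Ncapd2 (-0.14 and -0.27), and Mrpl2 and Klc4 both rose (0.18 and 0.44), as did Mrpl41 and Pnpla7 (0.12 and 0.19). Mrps5 rose while Zfp661 fell (0.16 and -0.43), and Mrps12 rose while Sars2 fell (0.13 and -0.27). Mrpl49 fell while Fau, a gene of the cytosolic small subunit, rose (-0.17 and 0.10). These pairs are all of the 10 apart from Mrps18c with Helq, Mrpl57 with Ska3 and Mrpl10 with Lrrc46, which moved in opposite directions. The search looked only upstream of each start, so it left out divergent pairs whose first exons overlap. Mrpl46 and Mrps11, on opposite strands with 173 shared exonic bases, were such a pair, and both fell (-0.12 and -0.10). On recovered reads Mrps11 was not called. Mrpl43, which was not called, and Twnk were another such pair.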

How the data were processed

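RNA was sequenced from 3 WT and 3 Piezo1cKO LSC libraries (Smart-seq2 based, oligo-dT primed, paired-end). The authors used fastp (0.20.1) for trimming, HISAT2 (2.2.1) for mapping to GRCm38, featureCounts (2.0.1) for counting and DESeq2 (1.28.1) for normalization. Their annotation release and strand setting were not given in the sources used here. The deposited values are log2 values with the form of a regularized log.
Genes with a mean log2 value of at least 1 (16746) entered a linear model in limma 3.58.1 under R 4.3.3 (lmFit, then eBayes with a trend, no covariates), with Benjamini-Hochberg adjustment over all of them. The deposited values are not counts, so DESeq2, which the authors used, was not run on them.
The transform was undone by fitting its size factors and shrinkage until values became whole: for genes averaging 1 read or more, 91.2% lay within 0.1 of a whole number, against 22.9% with the shrinkage set 10% off. Genes with at least 10 reads in total (17352) were fitted with limma-voom. Both steps were tested on simulated data. The simulated reads were recovered exactly in 100% of values. Of 66 genes given a log2 change of 0.25, limma found 59 on deposited-type values and limma-voom 22 on reads. Far fewer genes were changed in the simulation than were called in the data. Reads carry no molecular identifiers, so their numbers have counting error beside the spread between libraries. With 3 libraries against 3, exact two-sided permutation cannot give a p under 0.1.
Gene coordinates, exon overlaps and head-to-head starts came from GENCODE M21 (GRCm38), with all 78 members matched. Promoter windows used the starts of RefSeq. The members and lists were chosen with earlier results of these data known. The genes named are, per subunit, the 6 largest rises and 6 largest falls among those called, the 3 highest and 3 lowest levels per length, members whose sign differs between scales or that have at most 3 reads per library, Mrps30, Mrps18a and Mrps36, and at most 4 genes of other lists with the largest called changes (all genes of lists of up to 5). Genes named beside a head-to-head neighbour or a shared exon, and the promoters printed, were chosen after their values were seen. Mtrfr was not analysed here. Python (version 3.11.15) with numpy (2.4.6), pandas (2.3.3) and matplotlib (3.10.9) did the rest.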

Additional observations from a re-analysis of the deposited data

How the results depend on the processing

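The fits were repeated on all genes with values, on genes averaging 50 or more recovered reads, after 2 rescalings, with a replicate block, without each library in turn, without a variance trend and on recovered reads. Median-centring lowered the members that fell from 20 to 13, and adding the fold threshold left 0 higher and 0 lower (unadjusted p under 0.05 in 49 of 77). The small subunit median of 0.049 became 0.071 with median-centring, 0.078 with quantile normalization, 0.086 on recovered reads, 0.104 on library totals and 0.009 with proteins placed by subunit. Less the median of all genes it was 0.048 both as reported and with median-centring, 0.075 with quantile normalization, 0.086 on recovered reads and 0.087 on library totals. Without 1 library at a time, higher members ran from 21 to 29, lower members from 15 to 18, the small subunit median from 0.03 (without Piezo1cKO replicate 2) to 0.073 and the large subunit median from -0.013 to -0.001. The other alternatives left these 4 values within 1.5 times, or within the spread between replicates.
Of 47 called members, 34 kept their call in all 12 other fits of the deposited values, and 35 in the 6 without 1 library. For the 31 named members, no direction of a called difference reversed in 434 alternative values. With the replicate block, 30 members were higher and 20 lower. Deviations of same-numbered libraries correlated at 0.195, 0.161 and 0.0696, and those of libraries with unlike numbers at -0.17 to 0.0301. Each library thus correlated best with its own number. The labels give only the number, and whether same-numbered libraries were handled together was not tested. Genes with few reads, such as Mrps6, are those whose fold changes the deposited scale shrinks most.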
